A study of Rattus norvegicus with 9 samples.

Results

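The vacuolar proton pump (V-ATPase) was followed through 9 of its subunit genes in the transcriptomes of neonatal rat ventricular myocytes, heart muscle cells cultured from newborn Sprague-Dawley rats. The genes were taken by symbol from the deposited tables, and all 9 were found among the 28935 symbols counted. Each was above the low-count limit in every library and was among the 14151 genes tested. The cells had been infected for 48 h, in serum-free medium, with an adenovirus for Nfya, Nfe2l1 or GFP, and 3 mRNA libraries were sequenced per virus. All 3 groups therefore carried a virus, and GFP is the control infection. Before infection, every culture had spent 48 h in medium with 3% serum. The labels do not say whether the replicates were separate cultures, and p-values here measure the spread among the libraries, part or all of which may be technical.

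The V-ATPase is a rotary motor that spends ATP to move protons into lysosomes, endosomes and secretory vesicles. Its V1 sector stands in the cytosol and hydrolyses ATP, and its Vo sector lies in the membrane and carries the protons. The sectors can come apart and rejoin, which switches the pump off and on, and in heart muscle cells the pump is known for acidifying the lysosomes and endosomes on which autophagy and the storage of the fatty acid transporter CD36 depend. Genes for its subunits are known targets of the transcription factor TFEB and its relatives, which bind a CACGTG-containing element in many lysosomal genes. NFYA is a subunit of NF-Y, a factor that recognises CCAAT boxes, and NFE2L1 is a cap'n'collar factor known for inducing proteasome genes through antioxidant response elements.

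The targeted genes were read first, as a check of the labels. The Nfya gene stood at 89.0 ± 0.683 CPM (counts scaled to library size) in Nfya-labelled, 92.3 ± 2.20 in Nfe2l1-labelled and 80.4 ± 2.19 in GFP libraries (SD, n = 3 each). The Nfe2l1 gene stood at 222.7 ± 4.79, 239.4 ± 6.14 and 240.7 ± 6.09 CPM in the same order. The Nfya gene rose to much the same degree in both factor groups against GFP, by 0.15 ± 0.04 and 0.20 ± 0.04 on the log2 scale (adjusted p = 0.00926 and 0.000206), and the Nfe2l1 gene did not differ between Nfe2l1-labelled and GFP libraries beyond its error (−0.01 ± 0.03, adjusted p = 0.856). The counts thus do not verify the labels, and the groups are called by their labels throughout. Whether the viral transcripts could be counted at these loci is not given in the sources used here. The libraries held between 5712123 counts (GFP replicate 3) and 7310774 counts (Nfe2l1-labelled replicate 3). Cardiomyocyte markers were plentiful, with Ryr2 at 1007.0, 963.7 and 984.9 CPM in Nfya-labelled, Nfe2l1-labelled and GFP libraries, and none of the 9 markers counted was at 0.

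In Nfe2l1-labelled libraries most of the pump genes stood above GFP, while in Nfya-labelled libraries most were not called. Against GFP, 6 of the 9 genes rose in Nfe2l1-labelled libraries and 0 fell, where 28.9% of all genes tested rose and 29.7% fell. A gene was called at an adjusted p below 0.05 in edgeR's quasi-likelihood test over all genes tested, with Benjamini-Hochberg adjustment. The count of 0 was also 0 at an unadjusted p below 0.05 and with DESeq2. In Nfya-labelled libraries 1 gene rose and 2 fell (11.1% and 22.2%), where 24.3% of all genes rose and 27.9% fell. With 9 genes, these shares are not read as a difference from the background. The 9 genes had a median log2 change of 0.17 in Nfe2l1-labelled and −0.05 in Nfya-labelled libraries, against −0.01 and −0.02 over all genes tested. The median size of their change, whatever its direction, was 0.17 and 0.06, against 0.24 and 0.20 over all genes. Their changes were thus no larger than those of the typical gene. All libraries of the groups lay apart for 5 higher genes and 1 lower gene in Nfe2l1-labelled against GFP libraries, as they did for 31.7% and 32.4% of all genes tested. Among the 5 is Atp6v0d1, whose nearest libraries of the groups were both at 99.8 CPM and differed only beyond the first decimal. In Nfya-labelled against GFP libraries the groups lay apart for 1 higher and 3 lower genes, against 28.4% and 33.2% of all genes. Both comparisons share the GFP libraries.

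Set directly against each other, Nfya-labelled libraries were lower than Nfe2l1-labelled libraries for 8 of the 9 genes and higher for 0, where 25.4% of all genes tested were lower and 25.2% higher. The count of 0 was again 0 at an unadjusted p below 0.05 and with DESeq2. The median log2 difference of the 9 genes was −0.19, against 0.01 over all genes. The libraries lay apart for 7 lower and 0 higher genes, against 29.7% and 30.3% of all genes tested. The count of 8 depended on single libraries and on the tool. It was 5 without Nfya-labelled replicate 1, without Nfe2l1-labelled replicate 1, without Nfe2l1-labelled replicate 2, and with DESeq2. The genes that these settings lost were Atp6v1a, Atp6v1d and Atp6v1c1. The Nfe2l1-labelled libraries enter both this comparison and that with GFP, so the counts are not separate evidence.

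Summed over the 9 genes, the level was 1244.1 ± 7.67 CPM in Nfya-labelled, 1432.1 ± 53.5 in Nfe2l1-labelled and 1253.5 ± 52.5 in GFP libraries (SD, n = 3 each). The single libraries lay between 1235.6 and 1250.5 CPM, between 1372.1 and 1474.7 CPM, and between 1207.5 and 1310.8 CPM. The Nfe2l1-labelled libraries were above all others, and the Nfya-labelled libraries lay inside the GFP range. The sum is not scaled to gene length, and genes with high counts weigh most in it. Atp6v1a alone averaged 300.1 CPM in Nfe2l1-labelled and 210.5 CPM in GFP libraries, a large part of the difference in the sums. GFP replicate 1 was low for this gene, at 175.7 CPM. In cultured cells measured in bulk, fewer cells of a type and less RNA per cell cannot be told apart. By the sum, GFP replicate 3, the shallowest library, was the highest of its group, and Nfe2l1-labelled replicate 3, the deepest, was the lowest of its group. Other libraries went the other way. The Nfya-labelled sums rose with depth, from 1235.6 CPM at 6482108 counts to 1250.5 CPM at 6660358 counts. GFP replicate 2, deeper than replicate 1, was also above it (1242.3 against 1207.5 CPM). The part of depth in the differences was not tested.

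**Figure D1:**
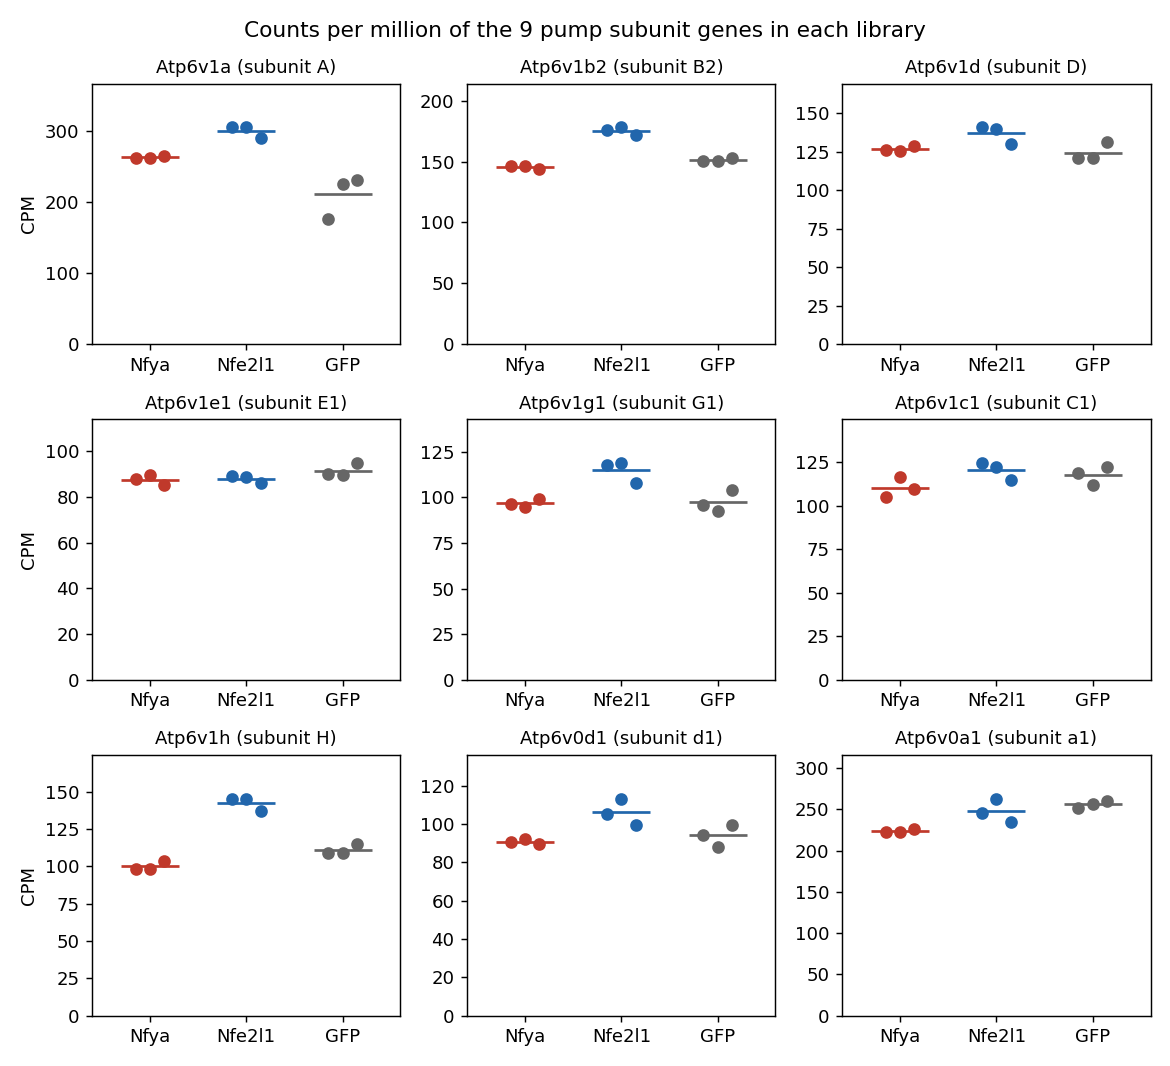
Level of each of the 9 pump genes in CPM (vertical axes, 1 panel a gene), with Nfya-labelled, Nfe2l1-labelled and GFP libraries from left to right. Points are libraries and horizontal lines are group means. Atp6v1h shows the clearest step, with Nfe2l1-labelled libraries between 136.9 and 145.3 CPM and all other libraries at or below 115.0.

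The upstream sequences of 6 of the genes were in RefSeq's rat promoter table (assembly GRCr8): Atp6v1a, Atp6v1d, Atp6v1e1, Atp6v1g1, Atp6v0d1 and Atp6v0a1. The deposited files are on another build, so these coordinates belong to GRCr8 alone. The 250 bases before each start were searched on both strands for CCAAT (the NF-Y box), TGACNNNGC (the core of the antioxidant response element) and CACGTG (the E-box of the lysosomal element). No 2 of these motifs overlapped in the 6 sequences. The 4 sequences that held a motif are shown 5′ to 3′ on the gene's strand, to place these letters beside the values that follow, with the motif in capitals.
Atp6v1a (chr11:70067252-70067501, plus strand): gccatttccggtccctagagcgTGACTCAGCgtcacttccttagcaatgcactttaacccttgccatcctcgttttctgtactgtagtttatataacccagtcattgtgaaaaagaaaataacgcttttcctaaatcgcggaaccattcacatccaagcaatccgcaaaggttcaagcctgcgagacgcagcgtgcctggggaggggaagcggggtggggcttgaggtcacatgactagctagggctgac
Atp6v1e1 (chr4:155716661-155716910, minus strand): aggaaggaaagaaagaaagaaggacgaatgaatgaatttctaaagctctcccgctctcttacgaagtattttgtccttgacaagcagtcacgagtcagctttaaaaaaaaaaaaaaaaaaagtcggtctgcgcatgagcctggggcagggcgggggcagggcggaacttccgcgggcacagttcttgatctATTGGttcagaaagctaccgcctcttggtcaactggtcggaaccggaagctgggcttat
Atp6v0d1 (chr19:50357249-50357498, minus strand): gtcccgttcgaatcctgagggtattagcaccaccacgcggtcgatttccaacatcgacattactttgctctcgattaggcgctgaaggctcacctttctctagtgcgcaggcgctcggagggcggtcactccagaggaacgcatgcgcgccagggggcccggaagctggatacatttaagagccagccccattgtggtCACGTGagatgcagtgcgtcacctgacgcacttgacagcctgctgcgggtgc
Atp6v0a1 (chr10:86435891-86436140, plus strand): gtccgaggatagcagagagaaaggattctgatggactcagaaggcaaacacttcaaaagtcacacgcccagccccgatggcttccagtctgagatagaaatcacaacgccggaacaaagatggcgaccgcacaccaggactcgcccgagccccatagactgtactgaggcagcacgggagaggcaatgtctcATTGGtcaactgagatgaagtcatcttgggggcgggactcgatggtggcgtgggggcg
The capitals mark TGACTCAGC in Atp6v1a, the reverse complement ATTGG of the CCAAT box in Atp6v1e1 and Atp6v0a1, and CACGTG in Atp6v0d1. Among all 33469 promoters of the table, CCAAT was found in 34.0%, TGACNNNGC in 10.1% and CACGTG in 5.59% of sequences of this length. The 6 pump genes held them in 2, 1 and 1 cases. Among 14 other pump genes in the table, 7 held CCAAT and 0 held either of the other motifs. A match is only a description of the letters, and these data hold no measure of binding.

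The catalytic ring of V1 is built of A and B subunits. Atp6v1a, which encodes the A subunit with the ATP-hydrolysing site, moved the most of the 9 genes against GFP. It was counted at 262.1, 261.2 and 264.9 CPM in Nfya-labelled libraries, at 305.5, 304.9 and 289.9 CPM in Nfe2l1-labelled libraries, and at 175.7, 224.6 and 231.2 CPM in GFP libraries. The 3 groups did not overlap, and GFP replicate 1 stood well below the other GFP libraries. Atp6v1a rose 1.43-fold in Nfe2l1-labelled libraries (log2 0.51 ± 0.07, SE, adjusted p = 5.88e-06) and 1.25-fold in Nfya-labelled libraries (0.32 ± 0.07, adjusted p = 0.000775). Without GFP replicate 1 the log2 changes were 0.41 ± 0.04 (adjusted p = 2.75e-07) and 0.24 ± 0.04 (adjusted p = 0.000101). Between Nfya-labelled and Nfe2l1-labelled libraries the log2 difference was −0.19 ± 0.06 (adjusted p = 0.0201), and DESeq2 did not call it (adjusted p = 0.139). RefSeq's gene table also lists a pseudogene copy, Atp6v1a-ps1, and reads shared with it could make the counts of Atp6v1a uncertain.

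Atp6v1b2 encodes the B2 subunit, the partner of A in the ring and the widely expressed form of B. Its libraries stood at 146.4, 146.7 and 143.9 CPM (Nfya-labelled), 175.9, 178.5 and 172.1 CPM (Nfe2l1-labelled) and 150.3, 150.3 and 152.7 CPM (GFP). The Nfe2l1-labelled libraries were above all others, and the Nfya-labelled ones were below all GFP libraries by a few CPM. The gene rose 1.16-fold in Nfe2l1-labelled libraries (log2 0.22 ± 0.03, adjusted p = 8.61e-06). In Nfya-labelled libraries the log2 value was −0.05 ± 0.03 against GFP (adjusted p = 0.249), although the libraries did not overlap. Against Nfe2l1-labelled libraries, Nfya-labelled libraries were lower by a log2 value of −0.27 ± 0.03 (adjusted p = 1.1e-06).

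The ratio of the ring's subunits was also read. On the RPKM scale, which divides by gene length, Atp6v1a over Atp6v1b2 was 1.15 ± 0.0203 in Nfya-labelled, 1.09 ± 0.0169 in Nfe2l1-labelled and 0.891 ± 0.124 in GFP libraries (SD, n = 3 each). The 3 GFP libraries gave 0.748, 0.956 and 0.969, each below every library of the other groups. The GFP spread rests on replicate 1. Atp6v1a over Atp6v0a1, a ratio of 1 V1 gene to 1 Vo gene, was 1.11 ± 0.00225, 1.15 ± 0.0444 and 0.776 ± 0.102 in the same groups. In Nfya-labelled against GFP libraries these were the genes with the highest and lowest log2 changes of the 9 (0.32 and −0.19). The median log2 change of the 7 V1 genes against GFP was −0.05 in Nfya-labelled and 0.22 in Nfe2l1-labelled libraries. That of the 2 Vo genes was −0.12 and 0.06. The ratios and medians carry no test, and the ratio is not read as one of the sectors.

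The central stalk turns inside the ring and passes its rotation to the membrane sector. Atp6v1d, which encodes its D subunit, was counted at 126.0, 125.1 and 128.7 CPM in Nfya-labelled, 141.0, 139.8 and 129.9 CPM in Nfe2l1-labelled and 121.0, 120.9 and 131.4 CPM in GFP libraries. Nfe2l1-labelled replicate 3 lay below GFP replicate 3, so those groups overlapped. Atp6v1d rose 1.10-fold in Nfe2l1-labelled libraries (log2 0.14 ± 0.04, adjusted p = 0.0074). It had a log2 value of 0.03 ± 0.04 in Nfya-labelled libraries against GFP (adjusted p = 0.597). The Nfya-labelled libraries lay below the Nfe2l1-labelled ones by −0.11 ± 0.04 (adjusted p = 0.0293), a call that 15 of 22 alternative settings lost, DESeq2 among them (adjusted p = 0.145).

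The peripheral stalks, which keep the ring from turning, are pairs of E and G subunits. Their genes gave different calls. Atp6v1g1, for subunit G1, had 96.4, 94.4 and 99.2 CPM in Nfya-labelled, 117.7, 118.8 and 107.9 CPM in Nfe2l1-labelled and 95.9, 92.2 and 104.0 CPM in GFP libraries. It rose 1.18-fold in Nfe2l1-labelled libraries (log2 0.24 ± 0.05, adjusted p = 0.000387). In Nfya-labelled libraries its log2 value was −0.01 ± 0.05 against GFP (adjusted p = 0.937) and −0.24 ± 0.05 against Nfe2l1-labelled libraries (adjusted p = 0.000375).

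Atp6v1e1, for subunit E1, was the flattest gene of the 9. Its libraries stood at 88.0, 89.8 and 85.2 CPM (Nfya-labelled), 89.4, 88.6 and 86.4 CPM (Nfe2l1-labelled) and 90.1, 89.7 and 95.0 CPM (GFP). It was the 1 gene called in none of the 3 comparisons. The log2 values were −0.06 ± 0.04 for Nfya-labelled against GFP (adjusted p = 0.302), −0.05 ± 0.04 for Nfe2l1-labelled against GFP (adjusted p = 0.345) and −0.01 ± 0.04 for Nfya-labelled against Nfe2l1-labelled libraries (adjusted p = 0.92). All Nfe2l1-labelled libraries were nonetheless just below all GFP libraries. The RPKM of Atp6v1g1 over that of Atp6v1e1 was 1.37 ± 0.0711, 1.61 ± 0.0602 and 1.32 ± 0.0418 in Nfya-labelled, Nfe2l1-labelled and GFP libraries. Both genes have a pseudogene copy in RefSeq's table (Atp6v1g1-ps1 and Atp6v1e1-ps1), which leaves their counts uncertain in the same way as those of Atp6v1a.

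Subunits C and H sit at the joint between V1 and Vo. In yeast, C leaves the complex when the sectors separate, and H silences ATP hydrolysis by the freed V1. Atp6v1h, for subunit H, gave the largest difference between the Nfya-labelled and Nfe2l1-labelled libraries. It had 98.5, 98.5 and 103.4 CPM in Nfya-labelled, 144.9, 145.3 and 136.9 CPM in Nfe2l1-labelled and 109.1, 108.7 and 115.0 CPM in GFP libraries. The groups stood in 3 separate bands, with Nfe2l1-labelled libraries highest and Nfya-labelled libraries lowest. Atp6v1h rose 1.28-fold in Nfe2l1-labelled libraries (log2 0.36 ± 0.04, adjusted p = 3.64e-07), and the Nfya-labelled libraries were below them by −0.51 ± 0.04 (adjusted p = 1.27e-08). It fell by 0.15 on the log2 scale in Nfya-labelled libraries against GFP (SE 0.04, adjusted p = 0.00523), a call that DESeq2 did not make (adjusted p = 0.0709). Atp6v1h was the 1 gene of the 9 called in opposite directions in the 2 comparisons with GFP.

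Atp6v1c1, for subunit C1, moved less. Its libraries stood at 104.7, 116.1 and 109.6 CPM (Nfya-labelled), 124.5, 122.4 and 114.4 CPM (Nfe2l1-labelled) and 118.7, 111.6 and 121.9 CPM (GFP). Each pair of groups overlapped. The log2 value was −0.09 ± 0.05 for Nfya-labelled against GFP libraries (adjusted p = 0.122) and 0.04 ± 0.05 for Nfe2l1-labelled against GFP (adjusted p = 0.504). The Nfya-labelled libraries were lower than the Nfe2l1-labelled ones by −0.13 ± 0.05 (adjusted p = 0.0294), a call lost in 14 of 22 alternative settings, with DESeq2 at an adjusted p of 0.113. The RPKM of Atp6v1h over that of Atp6v1c1 was 0.766 ± 0.0456 in Nfya-labelled, 0.994 ± 0.0144 in Nfe2l1-labelled and 0.795 ± 0.0236 in GFP libraries, with the Nfe2l1-labelled libraries apart from all others.

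In the membrane sector, subunit d couples the central stalk to the proton-carrying ring, and subunit a holds the path of the protons and anchors the peripheral stalks. Atp6v0d1, for the widely expressed d1, had 90.7, 92.2 and 89.6 CPM in Nfya-labelled, 105.3, 113.3 and 99.8 CPM in Nfe2l1-labelled and 94.5, 88.2 and 99.8 CPM in GFP libraries. The lowest Nfe2l1-labelled and the highest GFP library were alike to the first decimal. Atp6v0d1 rose 1.13-fold in Nfe2l1-labelled libraries (log2 0.17 ± 0.05, adjusted p = 0.00662). Its log2 value in Nfya-labelled libraries was −0.05 ± 0.05 against GFP (adjusted p = 0.476) and −0.22 ± 0.05 against Nfe2l1-labelled libraries (adjusted p = 0.0014).

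Atp6v0a1, for subunit a1, went the other way. It was counted at 222.8, 222.3 and 226.1 CPM in Nfya-labelled, 245.4, 263.0 and 234.8 CPM in Nfe2l1-labelled and 252.0, 256.2 and 259.7 CPM in GFP libraries. Every Nfya-labelled library was below every other library, while Nfe2l1-labelled and GFP libraries overlapped. Atp6v0a1 fell by 0.19 on the log2 scale in Nfya-labelled libraries against GFP (SE 0.04, adjusted p = 0.000343). Against Nfe2l1-labelled libraries the log2 difference was −0.14 ± 0.04 (adjusted p = 0.00362). In Nfe2l1-labelled libraries the gene had a log2 value of −0.05 ± 0.04 against GFP (adjusted p = 0.265).

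**Figure D2:**
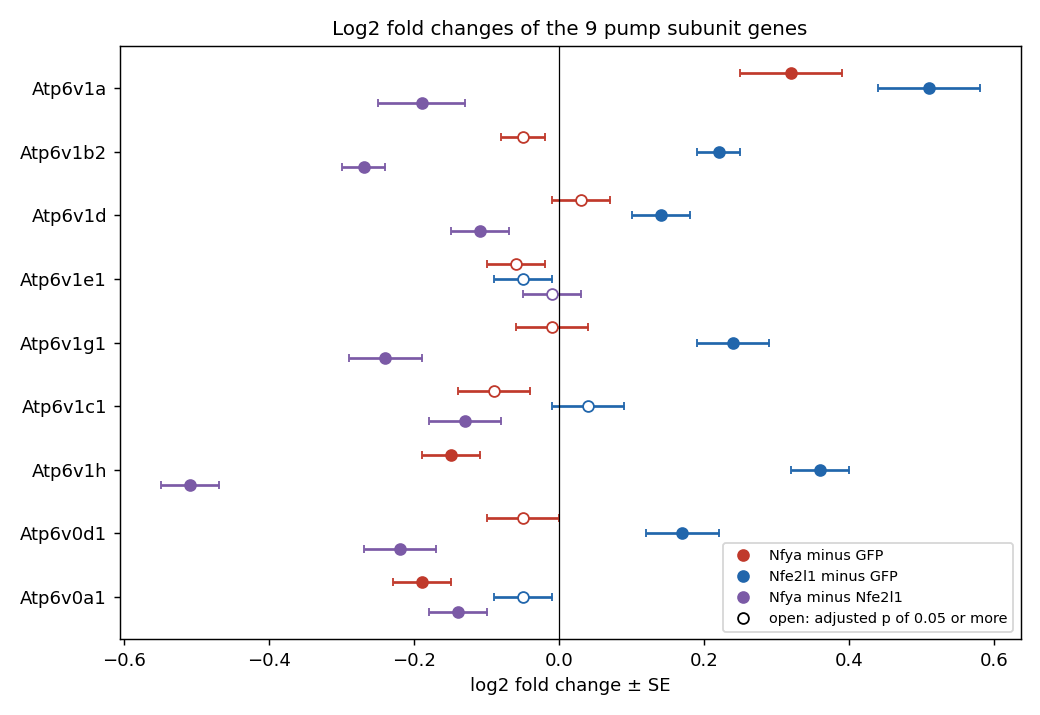
Log2 fold change with SE (horizontal axis) of each of the 9 pump genes (rows, by role in the pump) for Nfya-labelled against GFP, Nfe2l1-labelled against GFP and Nfya-labelled against Nfe2l1-labelled libraries; filled points passed an adjusted p below 0.05. Against GFP the values run from −0.05 to 0.51 in Nfe2l1-labelled and from −0.19 to 0.32 in Nfya-labelled libraries.

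The authors' deposited tables, which compare each virus with GFP by a likelihood ratio test, called the same numbers of these genes at a false discovery rate below 0.05. For Nfe2l1, the authors' deposited table held 6 of the 9 genes higher and 0 lower, where 28.1% of all its genes were higher and 28.7% lower. The authors' deposited table for Nfya held 1 higher and 2 lower, where 27.1% of all its genes were higher and 23.3% lower. In the authors' deposited table Atp6v1h had a log2 value of 0.36 in Nfe2l1-labelled libraries and −0.11 in Nfya-labelled libraries, with false discovery rates of 9.12e-14 and 0.0399.

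Compared per length, the levels of the 9 genes ran from 37.6 to 98.6 RPKM in Nfya-labelled, from 43.4 to 106.2 RPKM in Nfe2l1-labelled and from 38.6 to 95.8 RPKM in GFP libraries. In Nfya-labelled libraries Atp6v1d was highest, at 98.6 ± 1.51 RPKM, followed by Atp6v1g1 (90.7 ± 2.30) and, well below, by Atp6v1e1 (66.4 ± 1.75), Atp6v1c1 (63.6 ± 3.28) and Atp6v1a (62.4 ± 0.475). Atp6v0a1 (56.2 ± 0.532), Atp6v1b2 (54.1 ± 0.541), Atp6v1h (48.6 ± 1.37) and Atp6v0d1 (37.6 ± 0.527) closed the order. Of these neighbours, Atp6v1e1 with Atp6v1c1 and Atp6v1c1 with Atp6v1a overlapped between libraries. The stalk genes Atp6v1d and Atp6v1g1 led in every group and Atp6v0d1 was last in every group.

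The order in the middle differed between groups. In Nfe2l1-labelled libraries Atp6v1g1 (106.2 ± 4.62 RPKM) and Atp6v1d (105.1 ± 3.80) overlapped at the top. Behind them Atp6v1a (70.3 ± 1.47), Atp6v1c1 (68.6 ± 2.52), Atp6v1h (68.2 ± 1.66) and Atp6v1e1 (65.8 ± 0.722) overlapped from neighbour to neighbour. Atp6v1b2 (64.2 ± 0.577) overlapped with Atp6v0a1 (61.4 ± 2.98), and Atp6v0d1 was last at 43.4 ± 2.38. In GFP libraries Atp6v1a was only eighth, at 49.4 ± 6.99 RPKM, and overlapped with Atp6v1h at 53.3 ± 1.43. The stalk genes Atp6v1d (95.8 ± 4.20) and Atp6v1g1 (90.3 ± 5.19) overlapped there too, as did Atp6v1e1 (68.5 ± 1.87) with Atp6v1c1 (67.1 ± 2.79), and Atp6v1c1 with Atp6v0a1 (63.6 ± 0.723). Atp6v1b2 stood apart at 55.4 ± 0.244 RPKM and Atp6v0d1 at 38.6 ± 2.22.

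**Figure D3:**
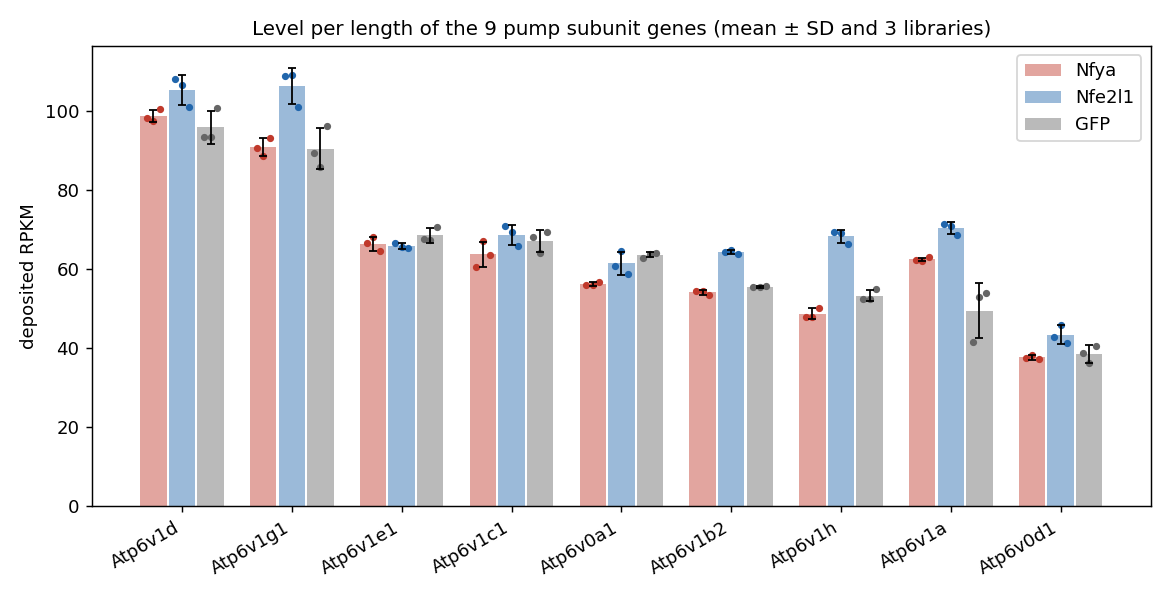
Length-scaled level (RPKM, vertical axis) of the 9 pump genes in each library, with Nfya-labelled, Nfe2l1-labelled and GFP libraries from left to right within each gene. Atp6v1d and Atp6v1g1 lie above all other genes in every group, and Atp6v0d1 lies lowest, at 37.6, 43.4 and 38.6 RPKM in Nfya-labelled, Nfe2l1-labelled and GFP libraries.

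Most of these subunits exist in several forms encoded by different genes, and the other forms were read from a list of 16 further pump genes, of which 15 were counted and 12 tested. Among the forms with RPKM values, the 9 genes above were the main ones for their subunits. Atp6v1b2 made up 99.6%, 99.8% and 99.6% of the RPKM of the B forms in Nfya-labelled, Nfe2l1-labelled and GFP libraries. Atp6v0d1 made up 98.7%, 96.1% and 99.2% of the d forms, Atp6v1c1 94.7%, 92.9% and 94.0% of the C forms, and Atp6v1g1 88.4%, 88.6% and 88.1% of the G forms. The shares are lowest for subunit a, where Atp6v0a1 held 77.2% ± 0.205, 77.6% ± 1.52 and 82.5% ± 0.935 (SD, n = 3 each), with every GFP library above every other library. The share of Tcirg1, which encodes the a3 form found in osteoclasts and lysosomes, was 22.1% ± 0.133, 20.3% ± 1.03 and 16.9% ± 0.876 in the same groups. The a shares cover only Atp6v0a1, Tcirg1 and Atp6v0a4. Atp6v0a2, for the a2 form, was the listed gene not counted, so shares of all a forms are unknown. The shares given here carry no test.

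Tcirg1 rose in both factor groups. It was counted at 44.8, 44.7 and 44.7 CPM in Nfya-labelled, 46.0, 44.4 and 45.3 CPM in Nfe2l1-labelled and 37.4, 38.1 and 34.5 CPM in GFP libraries. The log2 changes against GFP were 0.28 ± 0.05 in Nfya-labelled (adjusted p = 0.000409) and 0.30 ± 0.05 in Nfe2l1-labelled libraries (adjusted p = 0.000133). All 6 libraries were above all GFP libraries, and the Nfya-labelled and Nfe2l1-labelled libraries overlapped (−0.02 ± 0.05, adjusted p = 0.867).

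The largest changes among the pump genes belonged to forms that were barely counted. Atp6v0d2, for the d2 form known from osteoclasts and macrophages, had 3, 3 and 8 counts in Nfya-labelled libraries and 15, 17 and 18 in Nfe2l1-labelled libraries, against 1, 4 and 3 in GFP libraries. Its fitted log2 value in Nfe2l1-labelled against GFP libraries was 2.50. Atp6v0a4, for the a4 form known from kidney and inner ear, had 12, 11 and 10 counts in Nfya-labelled libraries and 39, 28 and 46 in Nfe2l1-labelled libraries, against 15, 7 and 8 in GFP libraries. It rose by 1.81 ± 0.27 in Nfe2l1-labelled libraries (adjusted p = 3.1e-05). Atp6v0d2 reached the low-count limit through the Nfe2l1-labelled libraries alone. It had to differ to be tested at all, and its value is given as a description, with no test. Atp6v0a4 was above that limit of 1.53 CPM in 3 Nfe2l1-labelled, 2 Nfya-labelled and 1 GFP library, and stood near it outside the Nfe2l1-labelled group. Even in Nfe2l1-labelled libraries these forms held 3.94% ± 0.231 of the d forms and 2.18% ± 0.487 of the counted a forms by RPKM.

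Of the membrane sector's small subunits, Atp6v0e2 fell and its sister gene Atp6v0e1 was not called against GFP. Atp6v0e2 had 32.2, 33.0 and 35.9 CPM in Nfya-labelled, 29.2, 27.7 and 28.0 CPM in Nfe2l1-labelled and 40.0, 38.7 and 36.1 CPM in GFP libraries. It fell by 0.44 on the log2 scale in Nfe2l1-labelled libraries (SE 0.06, adjusted p = 2.21e-05) and by 0.19 in Nfya-labelled libraries (SE 0.06, adjusted p = 0.0322), the second of which 13 of 22 alternative settings lost. Atp6v0b, a subunit of the proton-carrying ring, had a log2 value of −0.15 ± 0.04 in both groups against GFP (adjusted p = 0.0144 in Nfya-labelled and 0.0113 in Nfe2l1-labelled libraries). Those calls were lost in 10 and 6 of 22 settings. Atp6v0c, which encodes the main subunit of that ring, was not called in any comparison, with log2 values of −0.05 ± 0.04 against GFP in both groups. Atp6v1f, the partner of D in the central stalk, was not called either, with 48.2 ± 1.68, 50.9 ± 2.25 and 50.0 ± 1.58 CPM in Nfya-labelled, Nfe2l1-labelled and GFP libraries.

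The accessory proteins of the membrane sector split in Nfe2l1-labelled libraries. Atp6ap2, also known as the prorenin receptor, averaged 109.8 ± 2.89, 125.2 ± 5.96 and 110.0 ± 2.27 CPM in Nfya-labelled, Nfe2l1-labelled and GFP libraries and rose by 0.18 ± 0.04 in Nfe2l1-labelled libraries (adjusted p = 0.000681). Atp6ap1, an assembly partner of Vo, averaged 171.5 ± 2.86, 162.7 ± 7.69 and 179.9 ± 5.36 CPM and fell by 0.15 (SE 0.04, adjusted p = 0.00293). In all, 4 of the 12 further genes in the fit (33.3%) were called higher and 3 (25.0%) lower in Nfe2l1-labelled libraries against GFP, near the shares of all genes tested (28.9% and 29.7%). In Nfya-labelled libraries 1 (8.33%) was higher and 2 (16.7%) lower, where 24.3% and 27.9% of all genes were. With 12 genes, these shares are not read as a difference from the background. Between Nfya-labelled and Nfe2l1-labelled libraries 1 was higher and 6 (50.0%) were lower, against 25.2% and 25.4% of all genes, and the numbers ran from 0 to 2 and from 3 to 6 over the alternative settings. Atp6v0d2 is counted among the 4 and among the 6, so these counts are no support for a change of the list. The 6 were Atp6v0a4, Atp6v0d2, Atp6ap2, Atp6v0e1 (−0.18 ± 0.05, adjusted p = 0.0104), Atp6v1c2 (−0.58 ± 0.19, adjusted p = 0.0177) and Atp6v1g2 (−0.22 ± 0.08, adjusted p = 0.0344), and the higher gene was Atp6v0e2 (0.25 ± 0.07, adjusted p = 0.00566). Of 22 alternative settings, 12 lost the call of Atp6v1g2, 4 that of Atp6v1c2, 4 that of Atp6v0e1 and 1 that of Atp6v0e2. The remaining forms were too rare to test, with at most 9 counts per library for Atp6v1b1, 8 for Atp6v1e2 and 2 for Atp6v1g3.

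**Figure D4:**
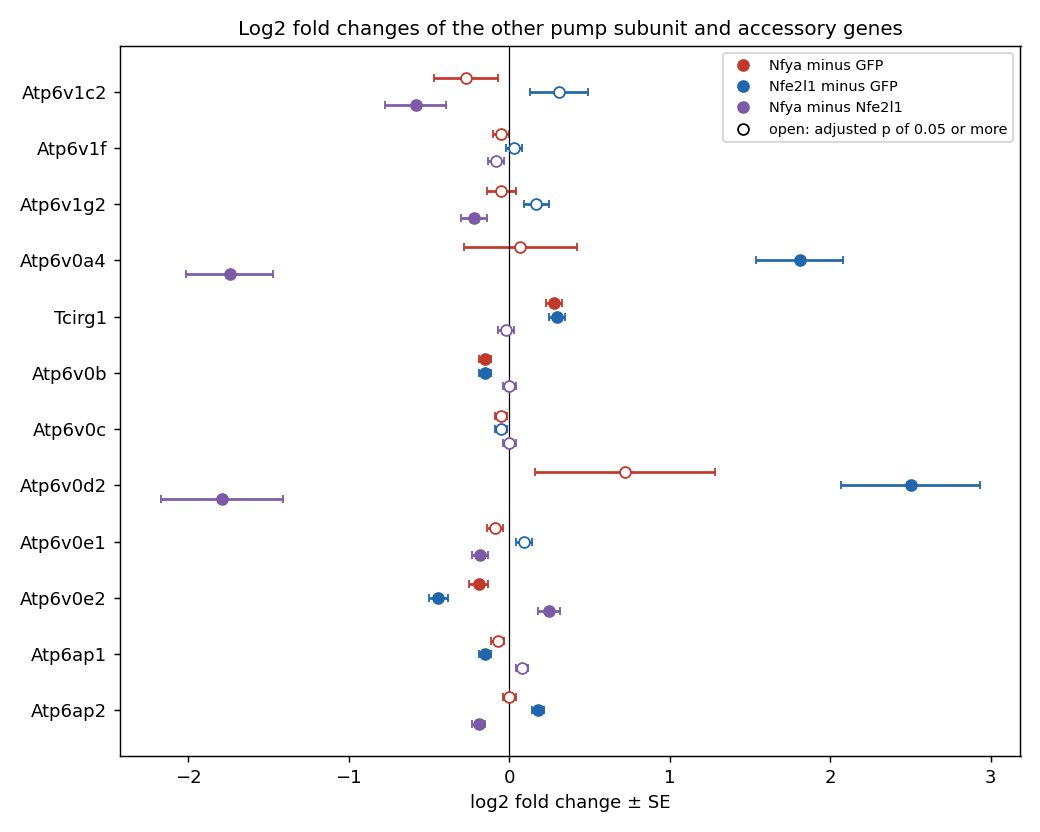
Log2 fold change with SE (horizontal axis) of the 12 further pump genes tested (rows) for Nfya-labelled against GFP, Nfe2l1-labelled against GFP and Nfya-labelled against Nfe2l1-labelled libraries; filled points passed an adjusted p below 0.05. The rare forms Atp6v0d2 and Atp6v0a4 stand out at 2.50 and 1.81 in Nfe2l1-labelled against GFP libraries, from fewer than 50 counts per library. Atp6v0d2 entered the fit through the Nfe2l1-labelled libraries alone, so its filled points are not read as test results.

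Genes that assemble the pump or regulate its assembly included larger changes than those of the 9 pump genes. Of 10 tested, 5 rose and 3 fell in Nfe2l1-labelled libraries against GFP, where 28.9% and 29.7% of all genes did. In Nfya-labelled libraries 1 rose and 3 fell, where 24.3% and 27.9% of all genes did. The shares that fell were thus near the background. Rogdi, a subunit of the RAVE-like (rabconnectin) complex that rejoins V1 and Vo, averaged 41.1 ± 0.730, 66.7 ± 0.507 and 38.9 ± 2.17 CPM in Nfya-labelled, Nfe2l1-labelled and GFP libraries, and rose by 0.77 ± 0.05 in Nfe2l1-labelled libraries. Dmxl2, the larger partner of Rogdi in that complex, fell in both groups, with 69.7 ± 3.28 CPM in Nfya-labelled and 73.7 ± 5.6 in Nfe2l1-labelled libraries, against 117.0 ± 5.13 in GFP libraries. Its log2 values against GFP were −0.75 ± 0.05 and −0.67 ± 0.05. Dmxl1, the related rabconnectin gene, was lower in Nfya-labelled libraries (340.1 ± 10.2 CPM) than in GFP libraries (417.7 ± 12.6 CPM), a log2 change of −0.30 ± 0.03. Ccdc115, an assembly factor of Vo, stood at 49.2 ± 1.68 CPM in Nfya-labelled and 71.6 ± 1.59 CPM in Nfe2l1-labelled libraries, a log2 difference of −0.54 ± 0.05.

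The organelles that the pump acidifies were read through further lists. Of 13 tested genes for other ion carriers of endosomes and lysosomes, 7 (53.8%) rose and 1 (7.69%) fell in Nfya-labelled libraries against GFP, where 24.3% and 27.9% of all genes did. In Nfe2l1-labelled libraries 8 (61.5%) rose and 3 (23.1%) fell, where 28.9% and 29.7% of all genes did. Clcn5, an endosomal chloride-proton exchanger, averaged 52.6 ± 2.91 CPM in Nfya-labelled and 48.3 ± 2.24 CPM in Nfe2l1-labelled libraries, against 33.0 ± 2.43 in GFP libraries (log2 0.67 ± 0.06 and 0.54 ± 0.07). Of 41 lysosomal hydrolases tested, 25 rose and 2 fell in Nfya-labelled libraries, and 21 rose and 5 fell in Nfe2l1-labelled libraries. These shares of higher genes, 61.0% and 51.2%, compare with 24.3% and 28.9% of all genes. Examples are Arsb (arylsulfatase B) at 122.3 ± 0.858 CPM in Nfya-labelled against 71.1 ± 3.29 in GFP libraries (log2 0.78 ± 0.04), and Ctsf (the protease cathepsin F) at 106.8 ± 1.23 CPM in Nfe2l1-labelled against 70.4 ± 2.66 in GFP libraries (log2 0.60 ± 0.04). In Nfya-labelled libraries 25 of 41 hydrolases were thus called higher, and 1 of the 9 pump genes.

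Of 14 other lysosomal membrane genes, 4 (28.6%) rose and 2 (14.3%) fell in Nfya-labelled libraries, the first near the 24.3% of all genes that rose. In Nfe2l1-labelled libraries 6 (42.9%) rose and 1 (7.14%) fell, where 28.9% and 29.7% of all genes did. Of 16 genes of the lysosomal mTORC1 machinery, a growth-signalling complex that docks near the pump, 4 (25.0%) rose and 3 (18.8%) fell in Nfya-labelled libraries, the first again near the background of 24.3%. In Nfe2l1-labelled libraries 10 (62.5%) rose and 1 (6.25%) fell. Rptor, the raptor subunit, averaged 226.0 ± 6.0 CPM in Nfe2l1-labelled against 146.1 ± 8.36 in GFP libraries (log2 0.63 ± 0.04). As a set of another rotary ATPase, 13 genes of the mitochondrial ATP synthase were read. In edgeR's quasi-likelihood test 0 of them were called in any comparison, and DESeq2 also called 0. At an unadjusted p below 0.05, 1 of the 13 was lower in Nfe2l1-labelled than in GFP libraries, and 0 passed in the other comparisons.

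The medians of these lists give their level of change beside the all-gene medians of −0.02 and −0.01 against GFP. In Nfya-labelled and Nfe2l1-labelled libraries the median log2 value was −0.08 and 0.11 for the assembly genes, 0.32 and 0.25 for the ion carriers, and 0.14 and 0.15 for the hydrolases. It was 0.02 and 0.04 for the membrane genes, −0.03 and 0.18 for the mTORC1 machinery, and −0.01 and −0.07 for the mitochondrial ATP synthase. The medians of the ion carriers and hydrolases thus stood above the all-gene median in both factor groups. Those of the assembly and mTORC1 genes did so in the Nfe2l1-labelled group, where 5 of the 10 assembly genes rose and 3 fell. List medians carry no test and are not read as a shift of a list. Directly between Nfya-labelled and Nfe2l1-labelled libraries, 5 of 10 assembly genes and 8 of 16 mTORC1 genes were lower (50.0% each), with 1 and 2 higher, where 25.4% of all genes were lower and 25.2% higher. Over the alternative settings the number of lower mTORC1 genes ran from 4 to 9. Of the hydrolases 16 were higher and 9 lower, of the ion carriers 5 and 1, and of the membrane genes 3 and 3, with 1 to 5 higher membrane genes over the alternative settings.

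The transcription factors known for driving pump and lysosome genes moved in different directions. Tfeb had 50.0, 51.7 and 55.6 CPM in Nfya-labelled, 48.0, 40.0 and 49.6 CPM in Nfe2l1-labelled and 71.9, 71.8 and 74.7 CPM in GFP libraries. It fell by 0.47 on the log2 scale in Nfya-labelled (SE 0.06, adjusted p = 1.02e-05) and by 0.66 in Nfe2l1-labelled libraries (SE 0.06, adjusted p = 2.54e-07). Mitf, its relative, averaged 103.5 ± 3.40 and 103.7 ± 2.24 CPM in Nfya-labelled and Nfe2l1-labelled libraries, against 74.9 ± 3.06 in GFP libraries, and rose by 0.47 ± 0.04 in both. Tfe3 averaged 45.6 ± 2.15, 60.3 ± 1.97 and 50.3 ± 3.25 CPM. It rose in Nfe2l1-labelled libraries (0.26 ± 0.05, adjusted p = 0.00058), and in Nfya-labelled libraries its log2 value was −0.15 ± 0.06 against GFP (adjusted p = 0.0513). Tfec, at 4.6 ± 0.721, 4.07 ± 0.951 and 3.15 ± 0.966 CPM, was not called in any comparison.

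**Figure D5:**
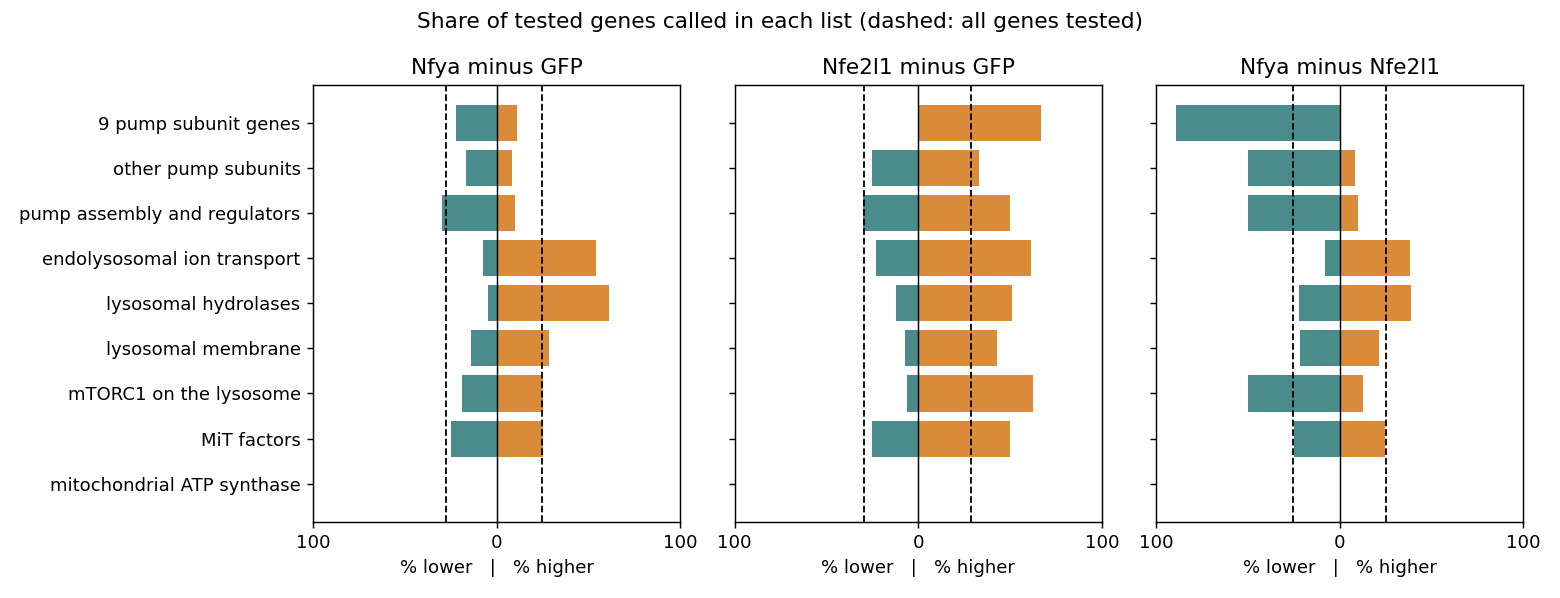
Share of tested genes called higher and lower (horizontal axis, percent) in each pathway list, for Nfya-labelled against GFP, Nfe2l1-labelled against GFP and Nfya-labelled against Nfe2l1-labelled libraries; dashed lines mark the shares among all genes tested. In Nfe2l1-labelled against GFP libraries 66.7% of the 9 pump genes were higher, against 28.9% of all genes tested.

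Markers of other heart cell types also differed between the groups, and their part in the pump results was not tested. Against GFP, 24.3% of all genes tested rose and 27.9% fell in Nfya-labelled libraries. In Nfe2l1-labelled libraries 28.9% rose and 29.7% fell. Marker shares near these are not read as a shift of a cell type. Of 10 fibroblast markers, 9 rose and 1 fell in Nfya-labelled libraries and 9 rose in Nfe2l1-labelled libraries against GFP, with summed levels of 1428.9 to 1445.6 CPM, 1213.4 to 1291.3 CPM and, in GFP libraries, 759.8 to 791.5 CPM. Macrophage and leukocyte markers, whose cells are rich in lysosomes, summed to 104.2 to 114.5 CPM, 109.1 to 125.4 CPM and 74.8 to 93.3 CPM in Nfya-labelled, Nfe2l1-labelled and GFP libraries, with 4 of 7 higher in each factor group and 1 lower in Nfya-labelled libraries. Csf1r, the most abundant of them, averaged 22.8, 33.6 and 30.6 CPM in the same order. Of 7 endothelial markers 5 rose and 1 fell in each factor group, with sums of 370.6 to 388.9 CPM, 410.4 to 429.5 CPM and 286.8 to 300.5 CPM in the same order. Epicardial and mesothelial markers summed to 144.7 to 163.9 CPM, 237.8 to 248.4 CPM and 116.9 to 126.1 CPM, with 6 of 7 higher and 1 lower in each factor group. Krt18, the most abundant of these, was lower in both, at 40.7, 42.8 and 73.6 CPM in the same order, while Krt8 averaged 32.3, 97.2 and 26.7 CPM. Smooth muscle and pericyte markers summed to 1101.2 to 1118.4 CPM, 781.0 to 802.1 CPM and 991.9 to 1003.7 CPM. Of 7 tested, 5 were higher and 1 lower in Nfya-labelled and 2 higher and 3 lower in Nfe2l1-labelled libraries. The 2 higher (28.6%) were near the share of all genes. Cardiomyocyte markers summed to 3148.7 to 3196.7 CPM, 2832.8 to 3128.6 CPM and 2916.0 to 3236.9 CPM, with 3 of 9 higher in Nfya-labelled and 1 of 9 lower in Nfe2l1-labelled libraries against GFP. Between Nfya-labelled and Nfe2l1-labelled libraries 4 of the 9 (44.4%) were higher and 0 lower, where 25.2% and 25.4% of all genes were. No marker counted was at 0 in all libraries.

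The mean log2 profile of the 9 pump genes over the 9 libraries was compared with that of every gene with a mean of at least 5 CPM, by the root mean square difference after centring. Among 11932 genes, Rab28, a small GTPase, was nearest (0.0161), followed by Sod2, the mitochondrial superoxide dismutase (0.0169), and Rps21, a ribosomal protein (0.0176). Among 119 genes of the pathway lists, the nearest were Psap (0.0330), the precursor of the lysosomal saposins, Ctsd (0.0383), the protease cathepsin D, and Smpd1 (0.0387), the acid sphingomyelinase. Within the 9 genes, Atp6v0d1 (0.0381), Atp6v1b2 (0.0384), Atp6v1g1 (0.0388) and Atp6v1d (0.0403) were about as near to the shared profile. The profile is the mean of the 9 genes themselves, so part of their nearness is built in. Atp6v1h (0.126) and Atp6v1a (0.187) were farthest from the profile. The 9 libraries share their groups and depths, so the likeness is a description of this profile only.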

How the data were processed

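Stranded mRNA libraries, 3 each labelled Nfya, Nfe2l1 and GFP, were analysed. Tools listed in the submitters' processing notes are featureCounts 1.6.0, edgeR 3.20.5 and FastQC 0.11.4, with GRCm38, mm10 and rn6 as builds. How reads were aligned, annotated, assigned by strand and freed of duplicates is not given in the sources here. The authors deposited whole-number counts for 28935 symbols and RPKM values for 14986 genes. Per the file headers, their edgeR tables hold log2 fold change and log2 CPM, a likelihood ratio score, and the p-value and adjusted p-value.

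Counts were tested with edgeR 4.0.16 in R 4.3.3 (filterByExpr, TMM, quasi-likelihood F test, all 9 libraries, group as the only term), with p-values adjusted by Benjamini-Hochberg over 14151 genes. SEs were derived from F, as the size of the log2 value divided by its square root. Totals of 5712123 to 7310774 counts limit the precision of rare genes. DESeq2 1.42.0 and limma 3.58.1 on log2(RPKM + 0.5) were among the alternatives. Nfya-labelled replicates 1 and 2 differed by no more than counting error over all genes (chi-square per degree of freedom 1.007, p = 0.29) but differed over genes below 0.1 counts per base (1.231, p = 3.12e-30), so they were kept as 2 libraries. Above 0.5 counts per base, replicates differed by less than counting error in most pairs (0.4475 to 1.156), which can come with a ceiling on counts in dense genes; the 9 genes had 0.261 to 0.654 counts per base. The 9 genes and the lists were chosen with earlier results of these data known. All 9 genes and all further pump genes with counts are named; of other lists, examples come from the 3 called genes with the smallest p in a comparison, and of marker lists the most abundant.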

Additional observations from a re-analysis of the deposited data

How the results depend on the processing

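Calls and counts of calls were recomputed under up to 22 alternatives (20 or 21 for some rare genes that a stricter filter removed, 21 for medians), and no called direction reversed. Summed levels, RPKM ratios, shares and likeness were not recomputed. In Nfe2l1-labelled libraries against GFP 6 genes were higher in all 22 settings, the number lower was 0 to 1 and the median log2 change 0.13 to 0.23 when 1 replicate was left out (0.23 without Nfe2l1-labelled replicate 3). In Nfya-labelled libraries against GFP 1 gene was higher in all settings, and 1 was lower with DESeq2 and 2 to 3 when a replicate was left out. Between Nfya-labelled and Nfe2l1-labelled libraries the number lower was 5 at an adjusted p below 0.01, with DESeq2 and with limma on log2 RPKM with either pseudocount or without a filter, and 5 to 8 when a replicate was left out. Replicate numbers did not pair the libraries (correlations of same-numbered deviations from -0.0655 to 0.0485), and with the replicate number as a block this count was 6, without Atp6v1d (adjusted p = 0.054) and Atp6v1c1 (0.0512); the other 2 comparisons kept their counts of 6 higher, and 1 higher with 2 lower. Averaging Nfya-labelled replicates 1 and 2, chosen after seeing the data, lost Atp6v1a (0.0588) and Atp6v1d (0.078) there. Inverting an assumed ceiling of 1.6 counts per base gave larger changes in Nfe2l1-labelled against GFP libraries, such as 0.60 for Atp6v1a and 0.42 for Atp6v1h. The cause of the lost calls was not tested. Of 3422 values for 52 other named genes, 139 lost and 37 gained a call and 0 reversed.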
